A study of Mus musculus with 4 samples.

Results

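The alternative exons of the amyloid precursor protein family and of matrix proteins were followed in mouse brains that lacked *Ptbp2*, a splicing repressor of maturing neurons. The genes were *App*, *Aplp2*, *Agrn*, *Fn1*, *Tnc* and *Vcan*. An exon trio is a run of 3 neighboring exons in the database that the authors mapped to, and its middle exon can be spliced in or skipped. All trios whose chromosome, strand, middle exon length and both intron lengths matched a GENCODE transcript of these 6 genes were taken, where each library of a stage had 20 or more junction reads. This gave 191 of 228333 trios and 153 middle exons, and all 191 trios passed the minimum at both stages. The 153 exons are 16 of *App*, 16 of *Aplp2*, 37 of *Agrn*, 46 of *Fn1*, 25 of *Tnc* and 13 of *Vcan*.

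Poly(A)+ RNA from mice of a mixed C56Bl/6:129S2 background, as the labels spell it, was sequenced in 4 libraries, and each group has 1 library. The NesKO library was made from whole brain at embryonic day 18 (E18), where *nestin*-Cre removed the floxed exon 4 of *Ptbp2* in neural progenitors and their progeny, and its control came from wild-type littermates, with 2 brains used for each. The EmxKO library was made from cortex at postnatal day 1 (P1), where *Emx1*-Cre acts in the lineage of forebrain projection neurons and leaves *Ptbp2* in other cells of the cortex, and its control also came from wild-type littermates. The number of animals at P1 is not given in the sources used here. Stage, tissue, Cre line and library protocol (strand specific at P1 and not at E18) changed together and cannot be told apart. There is no replicate of any group, so every p below compares 2 libraries and says nothing of the spread between animals.

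APP and APLP2 are transmembrane proteins that are cut by secretases, and both can carry a Kunitz protease inhibitor domain in their extracellular part. Agrin is a heparan sulfate proteoglycan. Its neuronal form, with a short insert near the C terminus called the z insert, clusters acetylcholine receptors at the neuromuscular junction. Fibronectin, tenascin-C and versican are matrix proteins whose alternative exons add or remove fibronectin type III repeats or the long domains that carry chondroitin sulfate.

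The deposited inclusion ratio, in percent, is called PSI (percent spliced in) here. *Ptbp2* itself served as the check of the labels, since its exon 4 was floxed. The PSI of exon 4 was 0.1 in NesKO and 99.9 in the E18 wild type, and it was 15.9 in EmxKO and 67.5 in the P1 wild type. Reads that skipped exon 4 numbered 257, 1, 680 and 604 in NesKO, the E18 wild type, EmxKO and the P1 wild type. The P1 library labelled wild type thus had many transcripts without the floxed exon, which goes against its label in part, and the cause was not tested. EmxKO still had the lower value of the P1 pair, and each P1 direction below, as well as each difference between the wild types, rests on the labels of these libraries. The libraries held 48363438 to 83385839 reads on distinct junctions. Levels are given as RPM, the reads on distinct junctions scaled to a total of 1000000. Summed RPM of 4 cortical genes was 135 and 147 in the E18 knockout and wild type and 418 and 496 at P1, and that of 3 genes expressed outside cortex was 103 and 140 against 14.5 and 25.4. Summed RPM of 5 fibroblast and meningeal genes (*Col1a1*, *Col1a2*, *Col3a1*, *Dcn* and *Lum*) was 1070 and 1110 in the E18 knockout and wild type and 24.7 and 18.2 at P1. That of 4 microglial genes was higher in both knockouts, by a ratio of 1.51 at E18 and 1.55 at P1. In a bulk sample, fewer cells of a type and less RNA per cell cannot be told apart.

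The short exons are shown first, because they are the ones in which a few residues distinguish the isoforms. Each line gives the transcript strand from 5′ to 3′, read from GENCODE M21 transcripts (GRCm38), with the alternative exon in capitals and 20 bases of the neighboring exons in lower case.
App 57 nt: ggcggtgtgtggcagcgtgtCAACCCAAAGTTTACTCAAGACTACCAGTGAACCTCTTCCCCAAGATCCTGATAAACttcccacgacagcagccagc
App 54 nt: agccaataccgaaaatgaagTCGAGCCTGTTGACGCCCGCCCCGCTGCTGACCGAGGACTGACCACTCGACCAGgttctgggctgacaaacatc
Aplp2 36 nt: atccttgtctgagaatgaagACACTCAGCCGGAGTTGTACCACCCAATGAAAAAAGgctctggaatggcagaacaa
Agrn 24 nt: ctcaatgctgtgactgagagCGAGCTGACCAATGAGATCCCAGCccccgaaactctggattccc
Agrn 33 nt: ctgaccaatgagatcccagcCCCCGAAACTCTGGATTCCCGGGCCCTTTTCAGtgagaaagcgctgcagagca
The *App* 54-nt exon and the *Aplp2* 36-nt exon sit between similar sequences. Of the 20 bases before them 13 are identical, and of the 20 bases after them 11 are. The *Agrn* exons follow each other in the same transcript, so the last bases before the 33-nt exon are the end of the 24-nt exon.

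The Kunitz exons of *App* and *Aplp2* have the same length, and they are printed whole with the bases that are identical at the same position in capitals.
App 168 nt: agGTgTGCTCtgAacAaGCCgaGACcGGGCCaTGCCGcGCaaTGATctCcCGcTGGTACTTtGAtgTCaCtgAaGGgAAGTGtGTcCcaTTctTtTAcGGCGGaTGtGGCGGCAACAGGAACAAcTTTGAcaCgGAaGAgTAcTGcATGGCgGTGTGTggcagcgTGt
Aplp2 168 nt: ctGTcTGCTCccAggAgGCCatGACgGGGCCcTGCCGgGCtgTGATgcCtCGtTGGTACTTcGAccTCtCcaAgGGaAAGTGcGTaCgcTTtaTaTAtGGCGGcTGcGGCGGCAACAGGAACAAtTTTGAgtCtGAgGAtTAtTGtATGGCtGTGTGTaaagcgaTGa
They share 114 of 168 bases (67.9%). Despite that likeness they were used very differently in these brains, as the values below show.

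Of the 153 exons, 12 are labelled cassette exons in the database, and the lengths of all 12 are divisible by 3, against 102 of the 153. A change of at least 10 PSI points between knockout and wild type was called. At E18, 7 of the 191 trios were called, 2 higher and 5 lower in NesKO, against 2.03% of all matched trios. With 1 trio standing for each middle exon, 5 of 153 exons were called (background 1.74%), and 3 of the 12 cassette exons (background 11.1%). At P1, 3 trios were called (background 1.26%), with 1 exon of 153 (background 1.13%) and 1 cassette exon of 12 (background 9.53%). Most exons of these genes were included in nearly every transcript, with a PSI of at least 99 in both libraries for 130 of 153 exons at E18 and 131 at P1.

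The reads on the junctions gave a second measure. Junction PSI divides the mean of the reads on the 2 inclusion junctions by that mean plus the skipping reads. Fisher's exact test (two-sided) compared these reads between knockout and wild type, and its p-values were adjusted by Benjamini-Hochberg over all exons, or all trios, tested at the stage. At E18 no member exon had an adjusted p under 0.05 (background 0.195%), and 1 member trio did (background 0.218%). An unadjusted p under 0.05 was seen for 6 member exons at E18, and the share of all exons with one is not given here. At P1, 4 member exons passed (background 0.416%) and 6 trios did (background 0.44%). The 4 exons, the *Aplp2* 168-nt and 36-nt exons and the *Agrn* 24-nt and 104-nt exons, were all higher in EmxKO. None of the 153 exons met both criteria at E18 (background 0.127%) or at P1 (background 0.173%) in the trio that stands for it. The *Agrn* 33-nt exon met both at P1 in a trio without a match in the annotation, which is described with agrin below.

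**Figure D1:**
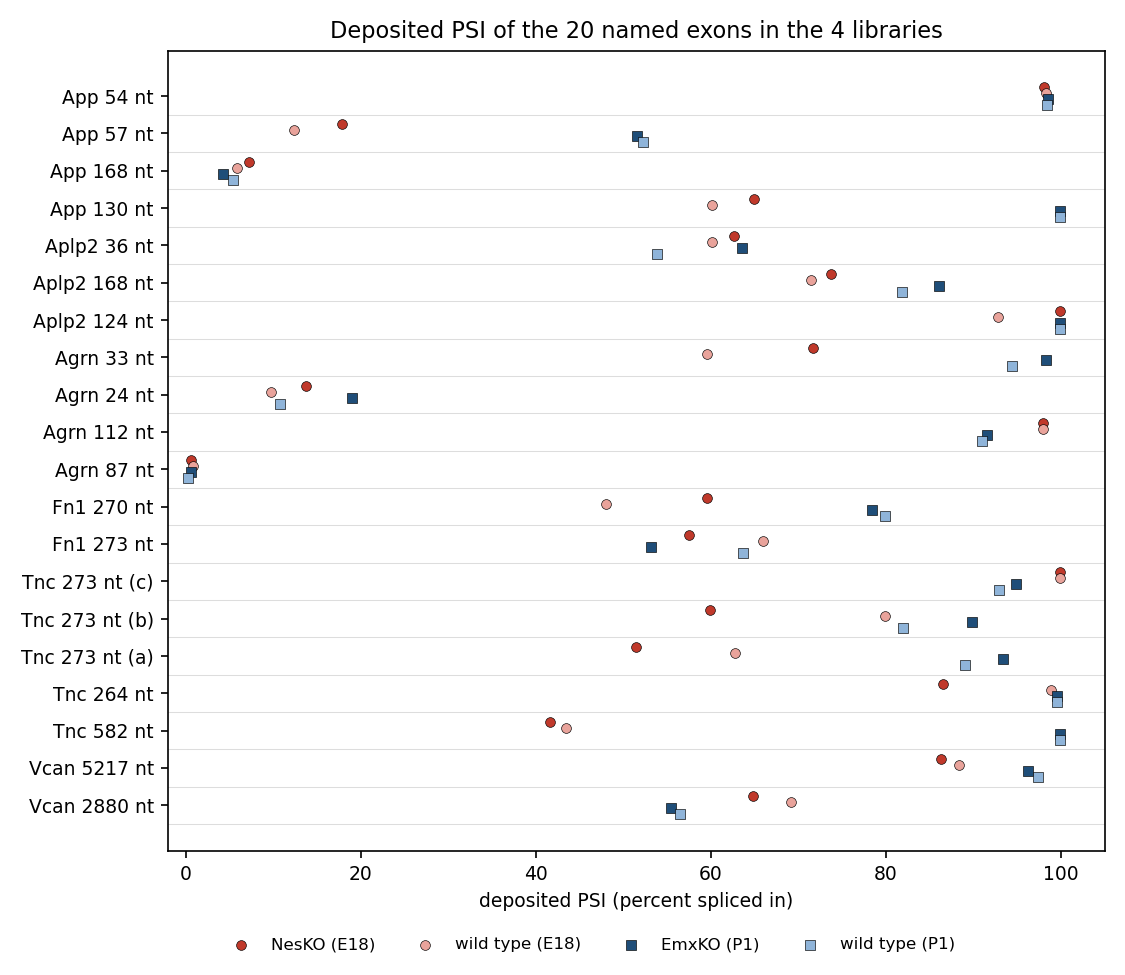
Deposited PSI (x axis, in percent) of the 20 named exons (y axis, by gene and length in nucleotides) in each of the 4 libraries, circles for E18 and squares for P1. The Tnc 273-nt exons are lettered a to c from 5′ to 3′ in the transcript. The App 57-nt exon lies at 17.8 and 12.4 at E18 and at 51.5 and 52.2 at P1, and the App 168-nt exon stays between 4.2 and 7.2 in all 4 libraries.

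The Kunitz exon of *Aplp2* was the common form, and its inclusion rose in EmxKO against the library labelled P1 wild type, whose *Ptbp2* exon 4 went against its label in part. This coding exon 7 of 17, on chr9:30975146-30975313 (mm9, minus strand), had a PSI of 73.7 in NesKO, 71.4 in the E18 wild type, 86.1 in EmxKO and 81.8 in the library labelled P1 wild type. At P1 the reads that skipped it numbered 241 in EmxKO and 355 in its control, with a junction PSI of 87.6 in EmxKO (86.1 to 89.0, the 95% Wilson interval) and 82.0 in the control (80.2 to 83.6). The adjusted p of Fisher's exact test at P1 was 0.00047, for a difference of 5.65 points. At E18 the junction PSI was 75.7 and 72.3, a difference of 3.42 points with an adjusted p of 0.62. Between the wild types it was 10.4 PSI points higher at P1. Wilson intervals here cover counting error only.

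The coding 36-nt exon of *Aplp2* (chr9:30963775-30963810, mm9) is a second alternative exon of this gene. It is exon 13 of 17 in a transcript other than the one in which the Kunitz exon was numbered. Without it the flanking exons join into a site to which chondroitin sulfate is attached in APLP2. Its PSI was 62.6 in NesKO, 60.1 in the E18 wild type, 63.5 in EmxKO and 53.8 in the library labelled P1 wild type, the lowest value of the 4. The difference at P1 was 9.7 points, just under the 10-point cutoff, and on junction reads it was 10.3 points with an adjusted p of 3.3e-05 by Fisher's exact test. At E18 it was 2.5 points, with an adjusted p of 1. The junctions out of the upstream 153-nt exon gave the same order at P1, with 36.2% of its reads in EmxKO joined to the 36-nt exon and 28.8% in the wild type. They are junctions of the same trio and thus not a separate measure.

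The corresponding exon of *App*, the 54-nt exon 15, was included in most transcripts, and the share that left it out depended on the junctions that were counted. Leaving it out creates the chondroitin sulfate form of APP called appican. Its PSI was 98.1, 98.3, 98.5 and 98.4 in NesKO, the E18 wild type, EmxKO and the library labelled P1 wild type, and the junction PSI lay between 97.5 and 97.9. The difference on junction reads was -0.41 points at E18 and 0.13 points at P1, both with an adjusted p of 1. Other trios list more reads on its skipping junction (149, 161, 243 and 235, against 50, 39, 96 and 96 in its own trio). Of the reads into the 101-nt exon 16, 6.51%, 6.99%, 7.65% and 7.63% left out the 54-nt exon, and of those out of the 222-nt exon 14, 20.4%, 24.1%, 7.58% and 7.73% did. The PSI from its own trio is therefore high against both shares, which have no test.

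The Kunitz exon of *App* was rare. Exon 7 of 18 (chr16:85043821-85043988, mm9) is skipped in the isoform that neurons make, APP695, together with the 57-nt exon 8, which encodes a stretch related to the OX-2 antigen. Its PSI was 7.2 in NesKO, 5.8 in the E18 wild type, 4.2 in EmxKO and 5.4 in the library labelled P1 wild type. The junction PSI was 4.43 (3.99 to 4.91) against 3.73 (3.39 to 4.09) at E18 and 3.37 (3.01 to 3.79) against 4.36 (3.93 to 4.82) at P1. The difference was therefore positive at E18 and negative at P1, with adjusted p of 1 and 0.2. The test of whether the differences at both stages were unequal, a Wald test of log odds ratios, had an adjusted p of 0.092.

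The *App* 57-nt exon (chr16:85040496-85040552, mm9) differed between the wild types. In the trio whose upstream exon is the Kunitz exon, its PSI was 17.8 and 12.4 at E18 and 51.5 and 52.2 at P1. The wild types differed by 39.8 points there, and by 28.015 points on junction reads. The knockout differences were 5.4 points at E18 and -0.7 points at P1, with an adjusted p of 1 for both by Fisher's exact test. The junction downstream of the 57-nt exon also counts transcripts that join it directly to the exon before the Kunitz exon. Their direct junction had 12 reads in the E18 wild type and 226 in the P1 one. Of the reads out of the Kunitz exon, 44.2% (40.7 to 47.8) joined the 57-nt exon in the E18 wild type. In the library labelled P1 wild type 54.3% (50.05 to 58.4) did. Transcripts without the Kunitz exon do not enter this share, which has no test.

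The ways into exon 9 of *App* were compared in trios in which exon 9, of 134 nt and thus longer than a read, is the middle exon. Reads from exon 6, which make APP695, were 7740, 11275, 8073 and 7794 in NesKO, the E18 wild type, EmxKO and the library labelled P1 wild type, or 93.9%, 95.5%, 91.5% and 90.7% of all reads into exon 9. Reads from the 57-nt exon were 130 and 93 at E18, a share of 1.58% (1.33 to 1.87) in NesKO that was 0.788% (0.64 to 0.96) in its control. At P1 they were 519 and 506, and the shares of 5.885% and 5.886% were nearly equal. Reads from the Kunitz exon straight to exon 9 made up 4.57% and 3.70% at E18 and 2.57% and 3.44% at P1. The intervals of knockout and wild type did not overlap for either exon at E18, and for the Kunitz exon alone at P1. These shares were computed after the values were seen and have no test. Summed RPM of 5 neuronal genes was 1510, 1840, 2230 and 2230 in the same order. The knockout ratio of the sum was 0.816 at E18, where all 5 were lower in NesKO (*Snap25* by a ratio of 0.468). At P1 the ratio of the sum was 1.002, but the genes were split. *Snap25* had 0.506, *Map2* 0.578 and *Syt1* 0.948, while *Rbfox3* had 1.243 and *Tubb3* 1.259. The part of these genes in the shares was not tested.

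One *App* trio had the only adjusted p under 0.05 among the member trios at E18. It measures the Kunitz exon in transcripts that contain the 57-nt exon. Reads that joined exon 6 directly to the 57-nt exon, leaving out the Kunitz exon, were 36 in NesKO and 12 in the E18 wild type, and 315 in EmxKO and 226 in the library labelled P1 wild type. The junction PSI was 89.9 against 96.9 at E18 (adjusted p = 0.037 by Fisher's exact test) and 48.1 against 62.5 at P1 (adjusted p = 0.00031). The deposited PSI of this trio was 15.7, 13.3, 13.2 and 16.8, which is far from the junction PSI in level and, at E18, opposite to it in direction. The inclusion reads of the trio include transcripts that do not hold the 57-nt exon, because the junction between exon 6 and the Kunitz exon is common to both.

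**Figure D2:**
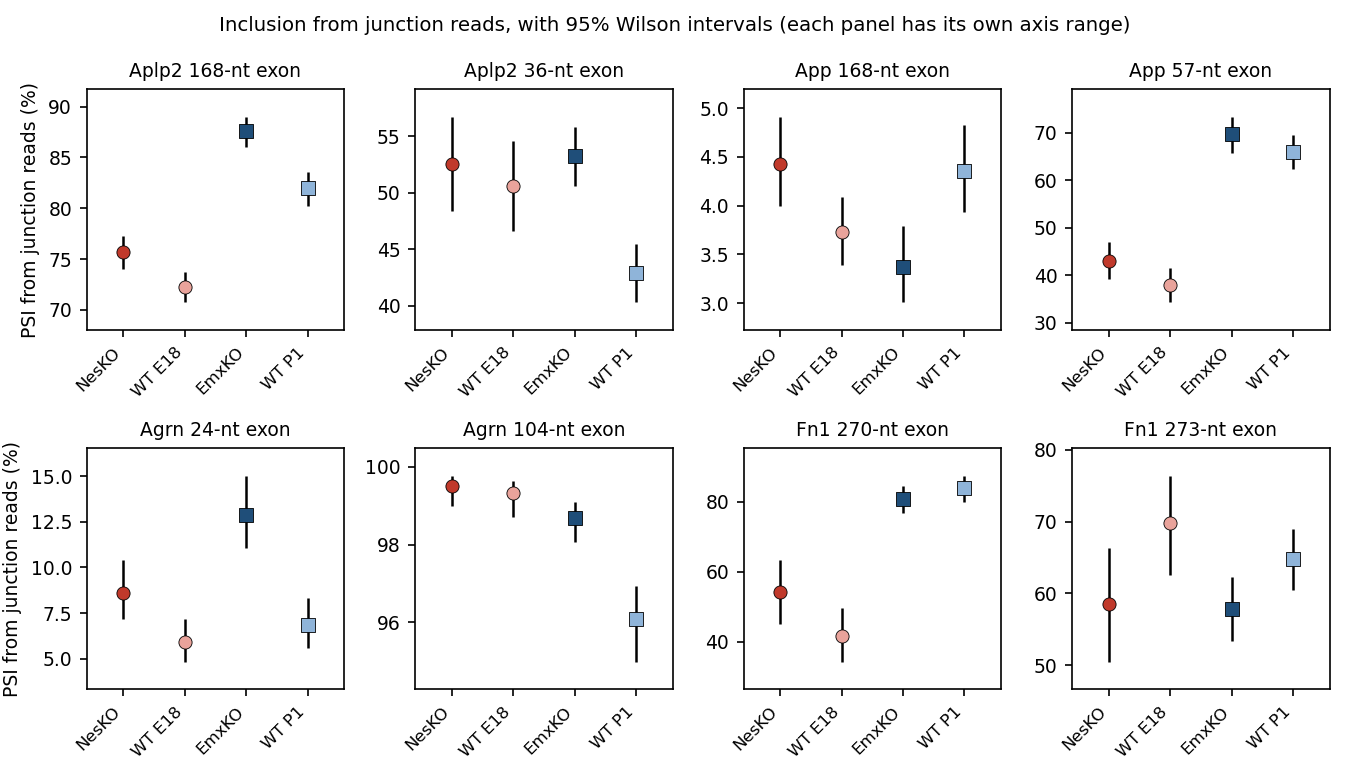
PSI from junction reads (y axis, in percent, with a separate range in each panel) of 8 exons in the 4 libraries (x axis), with vertical lines for the 95% Wilson interval. In the panels of Aplp2 and of the Agrn 24-nt exon EmxKO lies above the library labelled P1 wild type with intervals that do not overlap, at 87.6 against 82.0 for the Aplp2 168-nt exon. The Fn1 panels show E18 below P1 for the 270-nt exon and knockout below wild type at both stages for the 273-nt exon.

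The 24-nt z exon of agrin rose in EmxKO against the library labelled P1 wild type. The z exons are the 24-nt exon 34 and the 33-nt exon 35 of the 38-exon transcript (chr4:155542655-155542678 and chr4:155541886-155541918, mm9), and they can be used singly or together. Motor neurons need them for the synaptic activity of agrin. In the trio in which the 24-nt exon is joined directly to the 225-nt exon downstream, its PSI was 13.7 in NesKO and 9.7 in the E18 wild type, and 19.0 in EmxKO and 10.8 in the library labelled P1 wild type. Both knockouts lay above their control, by 4.0 and 8.2 points. The junction PSI at P1 was 12.9 (11.1 to 14.998) against 6.84 (5.61 to 8.32), with an adjusted p of 0.00025. At E18 it was 8.63 against 5.90, with an adjusted p of 1. The junction into the 24-nt exon is also used by transcripts that go on to the 33-nt exon. The inclusion reads of this trio thus include those transcripts. With the smaller of the inclusion junctions in place of their mean, the differences were 1.17 points at E18 and 3.03 points at P1. In each library the smaller one was the junction from the 24-nt exon to the 225-nt exon.

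Reads from the 24-nt exon into the 225-nt exon, on a junction that the trio above also counts, gave the same order. They were 25 and 14 at E18, or 2.24% (1.52 to 3.29) and 0.921% (0.55 to 1.54) of the reads into that exon from the 24-nt exon or from the exon before it. At P1 they were 109 and 78, or 9.54% (7.97 to 11.4) and 5.83% (4.69 to 7.21). These counts come from trios with the 225-nt exon in the middle. The trio of the 24-nt exon lists the same junction with 53 and 54 reads at E18 and 80 and 60 at P1. Where the 24-nt exon was used, most of its reads went on to the 33-nt exon, namely 87.8%, 87.7%, 88.0% and 82.7% in NesKO, the E18 wild type, EmxKO and the library labelled P1 wild type. In the trio with the 33-nt exon as its neighbor, the PSI of the 24-nt exon was 94.2 and 94.4 at E18 and 90.3 and 85.1 at P1.

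The 33-nt exon, in the trio with the 24-nt exon, had a PSI of 71.7 in NesKO and 59.5 in the E18 wild type, a difference of 12.2 points that passed the cutoff. It was 98.3 and 94.4 at P1. The junction reads did not differ in that way, with 3 skipping reads in each E18 library and a junction PSI of 98.5 and 98.4. The rise of 34.9 points between the wild types in the same trio also rests on few listed skipping reads, 3 and 8. Other trios list the same skipping junction with 53 and 54 reads at E18 and 109 and 78 at P1. The junction PSI of this trio thus rests on a part of the reads listed for its junctions. This trio lists no read on the upstream inclusion junction in any library, and all its inclusion reads were on the downstream junction. Trios with the 24-nt exon in the middle list that upstream junction with 382 and 385 reads at E18 and 587 and 286 at P1.

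The 33-nt exon without the 24-nt exon is measured in a trio that has no match in the annotation and is not among the 191. There its PSI was 18.8 in NesKO, 14.7 in the E18 wild type, 48.5 in EmxKO and 33.3 in the library labelled P1 wild type, and the skipping reads were 1024, 1458, 807 and 1103. The junction PSI at P1 was 39.6 (37.0 to 42.2) against 24.8 (22.7 to 27.1), with an adjusted p of 8.4e-14 by Fisher's exact test over all trios. At E18 it was 13.7 against 10.2, with an adjusted p of 0.96. Of the trios of the 33-nt exon, this one passed both the 10-point cutoff and the read test.

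The other *Agrn* exon that passed the read test was the 104-nt exon 37, which is near the end of the coding sequence and is not divisible by 3. Its PSI was 99.6 and 99.4 at E18, 98.7 in EmxKO and 95.2 in the library labelled P1 wild type. It was skipped in 27 reads in EmxKO and 60 in the wild type, with an adjusted p of 0.00044 for a difference of 2.59 points of junction PSI. The 112-nt exon had 98.0 in both E18 libraries and 91.6 and 91.0 at P1. An 87-nt exon of a noncoding transcript was at or below 0.8 in all 4 libraries. The level of *Agrn* was 1219 and 1191 RPM at E18 and 796.1 and 582.9 RPM at P1, so EmxKO had 1.37 times the level of its control.

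Fibronectin has 3 places of alternative splicing, the extra domains A (EDA, 270 nt) and B (EDB, 273 nt), each a whole type III repeat, and the variable region. EDA and EDB are typical of embryonic and regenerating matrix. Among exons called in the trio that stands for them, only these had more than 10 skipping reads in a library, EDA at E18 and EDB at P1. The *Agrn* 33-nt exon was past the cutoff with more than 10 skipping reads in its unmatched trio at P1. EDA and EDB did not pass the read test at either stage. The exons are printed whole with 12 bases of each neighbor in lower case, since they are of nearly equal length and sit in the same kind of repeat.
Fn1 270 nt: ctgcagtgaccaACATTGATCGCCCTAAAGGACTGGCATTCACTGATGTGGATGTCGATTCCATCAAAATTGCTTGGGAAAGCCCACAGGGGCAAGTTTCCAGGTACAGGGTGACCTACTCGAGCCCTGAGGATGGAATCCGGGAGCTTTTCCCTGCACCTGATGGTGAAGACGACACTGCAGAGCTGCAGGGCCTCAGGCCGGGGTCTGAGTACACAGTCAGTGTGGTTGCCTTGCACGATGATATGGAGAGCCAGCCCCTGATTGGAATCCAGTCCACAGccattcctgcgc
Fn1 273 nt: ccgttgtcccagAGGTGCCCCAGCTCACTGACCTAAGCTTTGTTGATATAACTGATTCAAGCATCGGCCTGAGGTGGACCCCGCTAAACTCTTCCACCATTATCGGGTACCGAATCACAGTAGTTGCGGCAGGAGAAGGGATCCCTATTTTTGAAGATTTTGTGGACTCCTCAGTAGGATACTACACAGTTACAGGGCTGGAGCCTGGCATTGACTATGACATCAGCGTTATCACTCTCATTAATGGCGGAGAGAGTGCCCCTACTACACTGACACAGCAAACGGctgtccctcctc
EDA is exon 33 and EDB exon 25 of the 46-exon transcript, on chr1:71650234-71650503 and chr1:71660337-71660609 (mm9), and both are coding.

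EDA had a PSI of 59.6 in NesKO and 48.0 in the E18 wild type, 11.6 points higher in the knockout. It was 78.4 in EmxKO and 79.9 in the library labelled P1 wild type. The skipping reads were 51 and 92 at E18 and 75 and 59 at P1. The junction PSI was 54.3 (45.2 to 63.4) against 41.8 (34.4 to 49.6) at E18, so that the intervals overlapped, and the adjusted p was 1. The wild types differed by 31.9 points, and by 42.2 points on junction reads, with P1 above E18.

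EDB was lower in both knockouts. Its PSI was 57.5 in NesKO and 65.9 in the E18 wild type, and 53.1 in EmxKO and 63.7 in the library labelled P1 wild type, and the differences were -8.4 and -10.6 points. It was the only exon called at P1. On junction reads the differences were -11.3 and -7.03 points, with overlapping intervals and an adjusted p of 1 at both stages. The shares of reads from the 183-nt exon downstream that joined EDB gave the same order, namely 58.9% against 68.6% at E18 and 56.5% against 64.1% at P1. These shares count junctions of the EDB trio again and are not a separate measure.

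The variable region follows the 90-nt exon, which can be joined to any of 3 alternative 3′ splice sites. The nearest site, which includes the whole region, took 63.1% of the reads in NesKO and 70.6% in its control, and 84.9% and 87.7% at P1. The farthest site, which leaves the region out, took 12.8% and 9.96% at E18 and 5.99% and 4.6% at P1. For the nearest site the NesKO interval (55.1 to 70.4) overlapped that of the E18 wild type (64.3 to 76.2), and the intervals also overlapped at P1 (81.7 to 87.7 and 84.6 to 90.2). *Fn1* had 209.0 and 264.8 RPM at E18 and 268.3 and 255.7 RPM at P1. The fibroblast and meningeal genes, which were far more abundant at E18, moved with the difference between stages, and their part in the *Fn1* values was not tested.

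**Figure D3:**
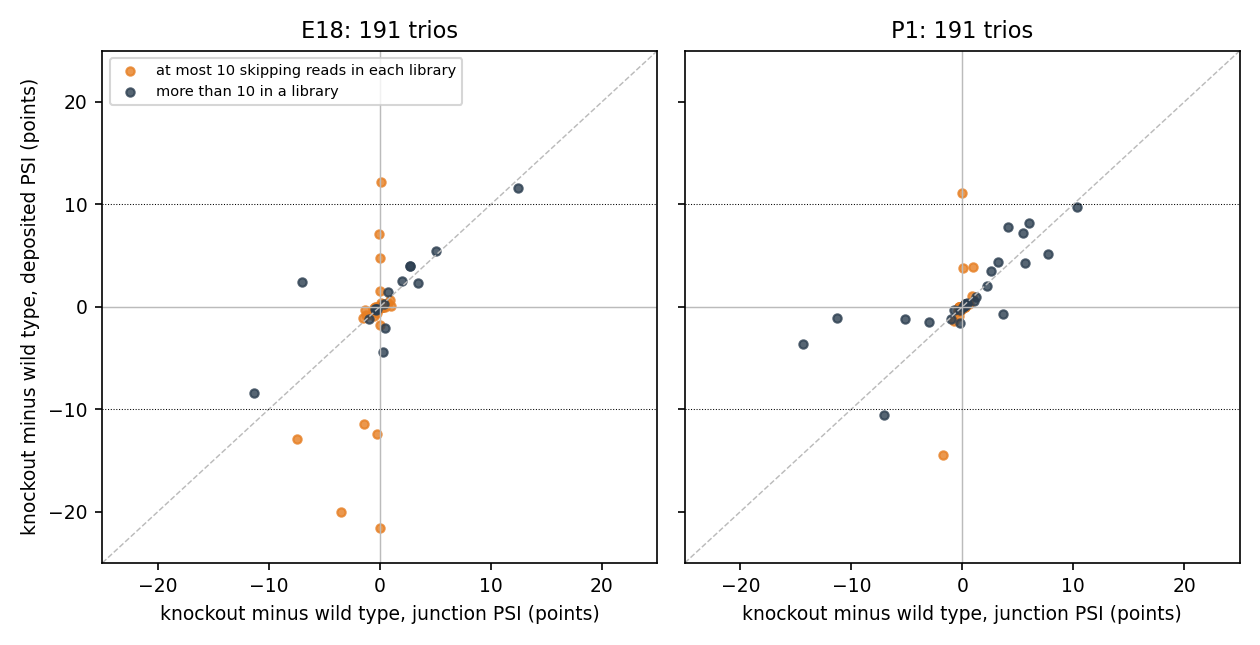
Knockout minus wild type of the deposited PSI (y axis, points) against the same difference of the junction PSI (x axis, points) for the 191 trios at E18 (left) and P1 (right), with dotted lines at 10 points and a dashed line of equality. Of the 7 trios beyond the dotted lines at E18, 6 had at most 10 skipping reads in each library, and so did 2 of the 3 at P1.

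Tenascin-C gave 3 of the 5 exons called at E18, all lower in NesKO, and each rested on at most 7 skipping reads in a library. It is a large matrix protein of germinal zones with a run of alternative fibronectin type III repeats of 273 nt each in its middle. The repeat on chr4:63645494-63645766 (mm9) had a PSI of 59.9 in NesKO and 79.9 in the E18 wild type, and 89.8 in EmxKO and 82.0 in the library labelled P1 wild type. Its skipping reads were 7 and 6 at E18 and 62 and 75 at P1, and its junction PSI was 90.5 (81.7 to 95.3) against 94.1 (87.6 to 97.2) at E18. At P1 the difference was positive, 7.8 points of PSI and 4.09 of junction PSI, with an adjusted p of 0.48. Its skipping junction is listed with more reads in another trio, 27 and 28 at E18 and 188 and 188 at P1.

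The repeat before that one in the transcript, on chr4:63654061-63654333, had a PSI of 51.4 and 62.8 at E18 and of 93.4 and 89.0 at P1. It was skipped in 2 and 1 reads at E18 and in 4 and 19 at P1. The repeat at the 3′ end of the run, on chr4:63643685-63643957, was at 99.9 in both E18 libraries and at 94.9 and 92.9 at P1. The 264-nt exon near the 5′ end had 86.5 in NesKO and 98.9 in its control, with 2 and 1 skipping reads and a junction PSI of 99.5 and 99.8. The difference was negative at E18 and positive at P1 for the first and the second repeat described here, and the Wald test of the difference between stages gave an adjusted p of 1 for both. *Tnc* had 293.3 and 294.5 RPM at E18 and 435.6 and 343.3 RPM at P1.

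The glycosaminoglycan exons of versican had knockout differences under 5 PSI points in the trios with the most reads. The 2880-nt exon 7 and the 5217-nt exon 8 each encode an attachment domain for chondroitin sulfate. The form with both is V0, with the longer alone V1, with the shorter alone V2 and with neither V3. In trios in which the neighbor is the other of these exons, the 5217-nt exon had a PSI of 86.3 and 88.4 at E18 and 96.2 and 97.4 at P1, and the 2880-nt exon had 64.8 and 69.2 at E18 and 55.4 and 56.5 at P1. On junction reads the 2880-nt exon differed by -11.3 points at P1, with an adjusted p of 1.

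Reads into the 114-nt exon that follows both were counted in one frame. Reads from the 5217-nt exon made up 63.4% and 65.3% at E18 and 63.8% and 65.4% at P1. Those from the 2880-nt exon made up 26.9% and 27.3%, and 23.03% and 20.6%. Reads from the 294-nt exon, which make V3, made up 9.68% and 7.44%, and 13.2% and 13.99%. The intervals of knockout and wild type overlapped for each of these shares into the 114-nt exon at both stages. Of the reads out of the 294-nt exon, 53.4%, 55.3%, 44.8% and 58.9% went to the 2880-nt exon in NesKO, the E18 wild type, EmxKO and the library labelled P1 wild type. The intervals of that share did not overlap at P1 (37.2 to 52.7 and 52.9 to 64.7), and it has no test.

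**Figure D4:**
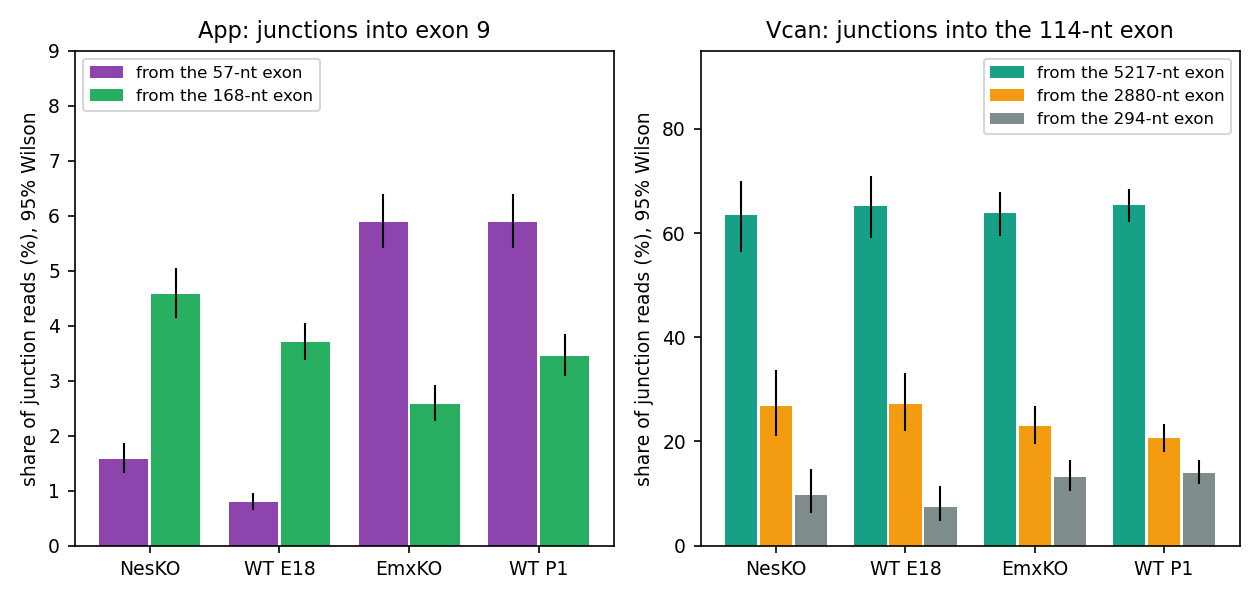
Share of the junction reads (y axis, percent, from 0, with 95% Wilson intervals as lines) that enter App exon 9 from the 57-nt or the 168-nt exon (left; the rest come from exon 6) and that enter the Vcan 114-nt exon from each of 3 upstream exons (right) in the 4 libraries (x axis). Reads from the App 57-nt exon were 1.58% and 0.788% in NesKO and its control and 5.885% and 5.886% at P1, and the intervals of the plotted Vcan shares of knockout and wild type overlap.

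The *Vcan* trios called changed were those that list almost no skipping read. The 5217-nt exon in the V1 trio had 49.9 and 71.5 at E18 with no skipping read listed in either library. The 2880-nt exon in the V2 trio had 39.7 and 52.6 at E18 and 71.5 and 86.0 at P1, with 2 to 5 skipping reads listed. The skipping junction of both trios, from the 294-nt to the 114-nt exon, is listed elsewhere with more reads. In the trio of the 114-nt exon it has 18 and 18 at E18 and 67 and 123 at P1. The 294-nt exon had 88.7 in EmxKO and 77.6 in the library labelled P1 wild type with no skipping read listed in its trio, so its PSI was under 100 although no listed read skipped it. The same was seen in exons that were not called, such as the *App* 130-nt exon 3 (64.9 and 60.1 at E18, with 0 and 1 skipping reads, and 99.9 at P1), the *Tnc* 582-nt exon (41.6 and 43.4 at E18 with none, and 99.9 at P1) and the *Aplp2* 124-nt exon 3 (99.9 and 92.8 at E18 with 1 and 0). The differences between wild types in these exons, 39.8, 56.5 and 7.1 points, were thus not seen in junction reads.

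*Vcan* was the gene of the 6 whose level differed most in EmxKO. It had 39.37 and 50.08 RPM at E18 and 41.78 and 74.33 RPM at P1, a ratio of 0.786 and 0.562. A level 1.5-fold lower in EmxKO was seen for 17.6% of all genes with enough reads, and 1.5-fold higher for 5.27%. None of the other 5 genes differed by 1.5-fold. The ratios of *App* were 0.869 and 1.04 and those of *Aplp2* 0.921 and 1.04, and the library labelled P1 wild type had 0.493 and 0.475 times the E18 wild-type level of these genes. The summed markers of the oligodendrocyte lineage had ratios of 0.711 at E18 and 1.24 at P1, and those of astrocytes 0.773 and 1.09. Of the 5 astrocyte genes, 4 were lower in the knockout at E18 and 1 at P1. *Gfap* was higher in both knockouts, with ratios of 2.78 and 2.345. The part of these markers in the gene levels was not tested.

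**Figure D5:**
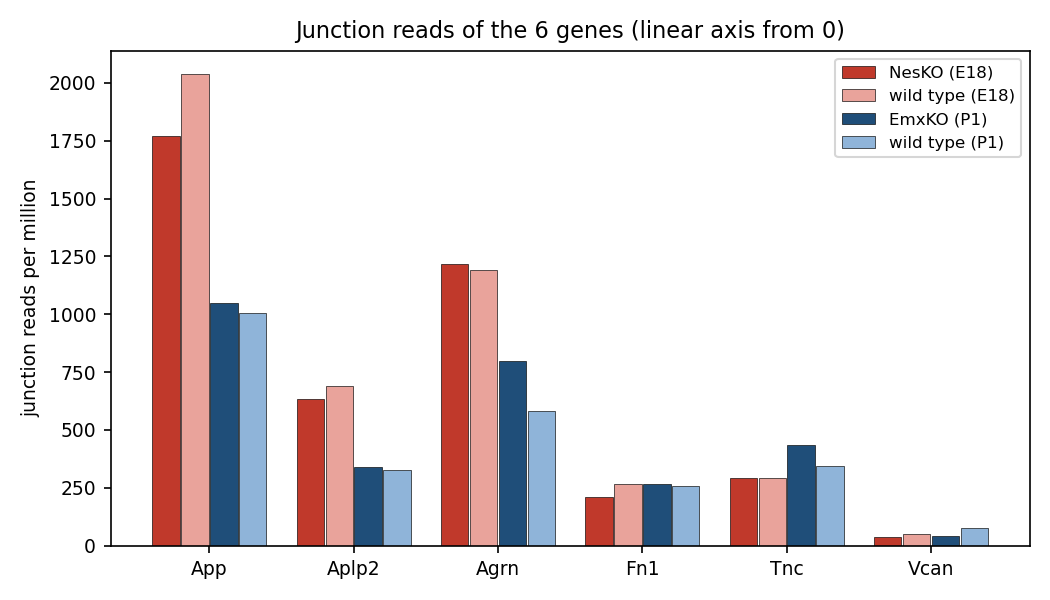
RPM of junction reads (y axis, linear from 0) of the 6 genes in the 4 libraries, as sums over each gene's junctions that are not corrected for length. Vcan stands at 41.78 in EmxKO and 74.33 in the library labelled P1 wild type, and App at 1769, 2037, 1048 and 1004.

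The knockout difference was not shown to differ between the stages for any of the 153 exons. The Wald test gave no adjusted p under 0.05, against 0.0534% of all exons, and 5 had an unadjusted p under 0.05. These were the *App* and *Aplp2* Kunitz exons, the *Aplp2* 36-nt exon, EDA and the *Tnc* repeat with 51.4 and 62.8. The share of all exons with such an unadjusted p is not given here, so the 5 are not read as a result.

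Other genes of the pathways were counted in the same way. In 20 genes of APP processing and adaptors, 4 of 323 exons (1.24%) were called at E18 and none of 323 at P1, against 1.74% and 1.13% of all exons. The E18 share lay below that of all exons, and none of the 4 passed the read test. All 4 were lower in NesKO, and they lie in *Adam17*, an α-secretase, and in the APP adaptors *Apbb1* and *Apbb2*. Skipping reads in NesKO and its control were 4 and 0 for *Adam17* and 5 and 6 for *Apbb1*. For *Apbb2* they were 23 and 17 for a 63-nt exon and 31 and 17 for a 219-nt exon. The cassette exons among them were a 40-nt exon of *Apbb1* (12.0 against 22.6) and a 63-nt exon of *Apbb2* (66.4 against 80.5). In 55 genes of matrix and its receptors, 9 of 1090 exons (0.826%) were called at E18, 4 higher and 5 lower, and 6 of 1086 (0.552%) at P1, 4 higher and 2 lower. Each share lay below that of all exons. The 1 exon that also passed the read test was a 17-nt exon of *Col4a1*, a basement membrane collagen, whose PSI was 17.5 in EmxKO against 7.1 (adjusted p = 0.023 by Fisher's exact test) and which was named after its value was seen. No exon of either list was called in the same direction at both stages.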

How the data were processed

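Poly(A)+ RNA of 4 libraries was sequenced as paired ends of 100 nt. The authors mapped the reads with SpliceTrap, and the submitters' notes also name TopHat, Cufflinks, CASAVA and mm9. The deposited inclusion ratio is a fraction that SpliceTrap estimated before and after its correction, and the corrected one times 100 was used as PSI. The deposited junction reads are raw counts for each of the 3 junctions of a trio, and the deposited exon coverage is a signal that was not used here. Exons shorter than a read tended to have fewer reads on the junction with the higher coordinate. The *App* 57-nt exon did not at E18, with 238 reads on the lower and 295 on the higher junction in NesKO. How reads that cross both junctions of a short exon were counted was not tested. Gene names came from GENCODE M21 on GRCm38 by lengths, and coordinates are mm9 as deposited.

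Trios with 20 or more junction reads in each library were tested (Fisher's exact test on rounded reads, Benjamini-Hochberg, cutoff 0.05), and stages were compared by a Wald test with 0.5 added to each count. The trio with the most junction reads stood for an exon. Gene levels are reads on distinct junctions scaled to 1000000 (RPM), with no test, over genes with at least 100 reads. Named exons are those labelled cassette, those that differ by 5 points in any comparison and the known alternative exons. Python 3.11.15 with numpy 2.4.6, pandas 2.3.3, scipy 1.17.1 and matplotlib 3.10.9 was used. In reads simulated for 123149 exons at P1, 60 of 100 exons raised by 30 points and 17 of 100 raised by 10 points were recovered, with 1 false call, and at E18 (124074 exons) 58 and 7 with 0. The raised exons were of intermediate inclusion, so the recovery does not cover exons that are nearly always or rarely included. The simulated reads held counting error alone, so the false calls say nothing of the spread between animals. The members and lists were chosen with earlier results of these data known. Introns were not analysed here.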

Additional observations from a re-analysis of the deposited data

Results flagged for a closer look

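Inside the 6 genes, 11 trios had no match in the annotation and entered no comparison, and 1 of them held a knockout difference above the 10-point cutoff. It measures the *Agrn* 33-nt exon between its downstream neighbor and the exon before the 24-nt exon, which is the isoform with the 33-nt insert alone. Its PSI was 48.5 in EmxKO and 33.3 in the library labelled P1 wild type, 15.2 points higher, with 807 and 1103 skipping reads. The junction PSI was 39.6 (37.0 to 42.2) against 24.8 (22.7 to 27.1), with an adjusted p of 8.4e-14 by Fisher's exact test, so that this trio also passed the read test. At E18 the PSI was 18.8 and 14.7, and the adjusted p was 0.96. With 1 library in each group, no group could be examined for outlying samples.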

How the results depend on the processing

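The called counts moved with the measure more than with the read minimum. Minima of 50, 10 or 1 read left all 4 counts as they were. The E18 counts of 7 trios and 5 exons were 2 and 2 with PSI from junction reads, from the smaller inclusion junction and from length-aware junction reads. The 2 exons were EDA, and EDB, which was not among the 5. The E18 counts were 0 and 0 when Fisher's adjusted p under 0.05 was also required, as were the P1 counts of 3 trios and 1 exon. With at least 3 skipping reads in a library, 4 trios remained above the cutoff at E18. At P1 the 1 exon became 2 with junction reads, with length-aware reads and with the trio that has the most skipping reads. In that last setting EDB stayed called, and the unmatched trio stood for the *Agrn* 33-nt exon. With junction reads and with length-aware reads EDB was no longer called. The exons called in its place were the *Aplp2* 36-nt exon, higher in EmxKO, and the *Vcan* 2880-nt exon, lower in EmxKO. The 4 exons with an adjusted p under 0.05 at P1 stayed 4 with length-aware reads, were 4 when adjusted over cassette exons alone (3 higher, 1 lower) and 5 with the trio with the most skipping reads, and at E18 the count was 0 in each. The test between stages gave 0 in each setting. For the 40 differences of the named exons, 159 alternative values lay within the counting interval of the main one and 41 did not, and none of those called changed sign. Length-aware reads, the minimum of 3 skipping reads and all alternatives of the read test were chosen after seeing the data. No paired analysis was possible because each group has 1 library, and none could be left out. Counts of intron motifs were not run.

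A member trio had a median of 879, 1105, 1831 and 1457 junction reads in NesKO, the E18 wild type, EmxKO and the library labelled P1 wild type, which limits the precision of each PSI.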

Other observations

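In the deposited counts, the share of inclusion reads on the junction with the higher coordinate depended on exon length. Its median over all trios was 10.2% to 12.5% for exons of up to 27 nt, 27.1% to 30.1% for 28 to 60 nt, 43.9% to 44.5% for 61 to 99 nt and 50% for 100 to 300 nt, in each of the 4 libraries. The *Agrn* 33-nt exon had 398 and 0 reads on its junctions in NesKO, and the *Aplp2* 36-nt exon had 525 and 51.

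A junction that belongs to several trios was not always listed with the same count. Of the junctions listed more than once, the lowest count was under 0.5 times the highest for 9.26% in NesKO, 9.46% in the E18 wild type, 10.01% in EmxKO and 10.2% in the library labelled P1 wild type. Among the members, the *Vcan* junction from the 294-nt to the 114-nt exon had 2 reads in EmxKO in the trio of the 5217-nt exon and 67 in that of the 114-nt exon.

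The variable region of *Fn1* appears in 3 of the unmatched trios as alternative 3′ splice sites of one exon. Inclusion of the 360-nt part was 91.6 and 94.5 at E18 and 99.6 and 99.9 at P1, and that of the 75-nt part was 84.1 and 88.5 at E18 and 97.0 and 97.1 at P1. In the E18 pair the knockout was lower by 2.9 and 4.4 points, and neither trio had an adjusted p under 0.05 by Fisher's exact test.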
